A study of Mus musculus with 4 samples.

Results

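Cell cycle inhibitors, the tumour suppressor Trp53 and a set of its target genes were examined in mouse embryonic stem (ES) cell lines that carry the leukaemia-linked fusion protein Nup98-HoxA9. The 10 genes are the Ink4 inhibitors Cdkn2a, Cdkn2b, Cdkn2c and Cdkn2d, the Cip/Kip inhibitors Cdkn1a and Cdkn1b, and Trp53 with Mdm2, Ccng1 and Bbc3. They were chosen by name, and every probe whose RefSeq transcript belongs to 1 of them was used, which gave 13 of the 55681 probes outside the controls (10 of the 37080 gene names on the array). The study asked how the fusion protein alters gene expression, and its arrays cover 4 lines, all derived from the ES line EB3: the untransfected parental cells, clones #1 and #9 of Nup98-HoxA9 ES, and 1 clone of HoxA9-Ct ES. The parental cells carry neither construct. Both Nup98-HoxA9 clones express FLAG-tagged Nup98-HoxA9, in which the FG-repeat part of the nucleoporin Nup98 is joined to the C-terminus of HoxA9 with its homeodomain, and HoxA9-Ct ES expresses that C-terminal part with a FLAG tag and without Nup98. The transgenes were integrated by the Tol2 transposon and the clones were selected with hygromycin, so each transgenic line is 1 clone. All lines were grown on gelatin with the cytokine LIF. Each line was measured on 1 array, and the clones are the only replicate, of separate clones rather than of separate cultures of 1 clone.

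Cyclin-dependent kinases (CDKs), bound to cyclins, drive a cell from G1 into DNA replication by phosphorylating the retinoblastoma proteins. Ink4 proteins block Cdk4 and Cdk6, while Cip/Kip proteins bind cyclin-CDK complexes more broadly. The p53 protein, the product of Trp53, switches on genes that stop the cycle (Cdkn1a), that start cell death (Bbc3) and that remove p53 itself (Mdm2, with Ccng1 as a further modulator). ES cells are known for a short G1 phase and low levels of several CDK inhibitors.

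Expression was read on one-colour Agilent mouse arrays, on 1 slide and in 1 scan. Values are log2 signals relative to the 75th percentile of the array, so 0 is that percentile and a difference of 1 is a 2-fold difference. A probe counts as above background where the scanner software flags it as well above the local background. A value below that limit is a bound and not a level. Genes were not ranked by signal, because probes differ in brightness for the same amount of RNA. A sum of signals over genes therefore mostly follows the brightest probes. At the 25529 probes above background on all arrays the median ratio to parental ES was -0.03 and -0.12 in clones #1 and #9 and 0.00 in HoxA9-Ct ES, and printed copies of a probe on 1 array differed with a median SD of 0.105 to 0.118. All 12 ES cell markers tested, among them Pou5f1, Nanog and Sox2, were above background in every line. Their ratios to parental ES ran from -0.52 to 0.71 in clone #1, from -1.62 to 0.33 in clone #9 and from -0.20 to 0.48 in HoxA9-Ct ES. Dppa3 was the lowest of them in both clones. Of 10 primitive endoderm markers, limma called 3 higher in the clones than in parental ES, Gata6, Sox17 and Pdgfra, and 7 higher in the clones than in HoxA9-Ct ES, where 1.41% and 1.36% of all probes were called in either direction. These calls against parental ES were lost with quantile normalization and with only probes above background on at least 1 array (adjusted p = 0.346 for Gata6 with the latter, and 0.137 in the fit over probes above background on all arrays). Gata6 stood at 2.23 and 2.53 above parental ES in clones #1 and #9 and at -1.39 relative to it in HoxA9-Ct ES. The markers Lamb1, at -0.44 and 0.04 in clones #1 and #9, and Sparc, at -0.06 and 0.23, were not called. In bulk RNA more cells of another kind and more RNA per cell cannot be told apart, and the part of such cells in the values below was not tested.

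At their brightest probe 8 of the 10 genes were above background in all lines, and 0 of these 8 differed from parental ES by more than 1.5-fold in the same direction in both clones. Over all probes above background on all arrays 6.7% did so, and 1.88% were past 2-fold. Cdkn2b and Cdkn2c, the other two genes, lay at or near the background. The plot of signals by line gives an overview of all 10 genes.

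**Figure D1:**
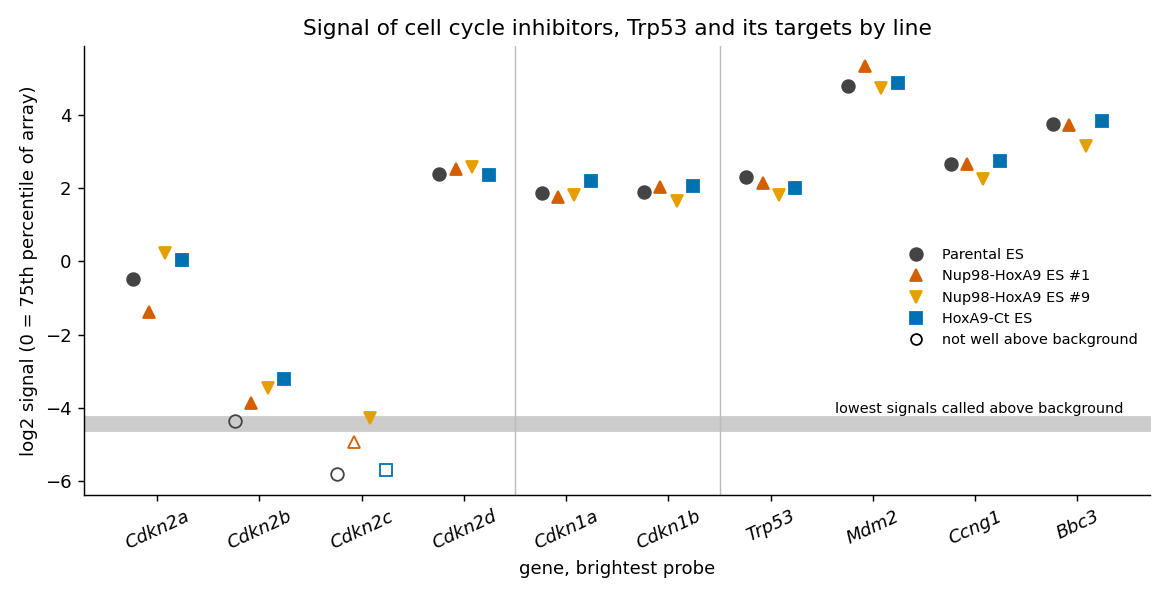
Log2 signal (y axis, 0 is the 75th percentile of the array) of each gene at its brightest probe in the 4 lines, 1 array each, with open symbols for probes not well above background and a grey band over the lowest signals called above background on the 4 arrays. Cdkn2b and Cdkn2c lie at or near the band, and Cdkn2a spreads from -1.39 in clone #1 to 0.22 in clone #9.

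Of the 8 genes above background in all lines, Cdkn2a differed most between the lines. The locus encodes both Ink4a, an inhibitor of Cdk4 and Cdk6, and Arf, which restrains Mdm2 and so protects p53. Its bright probe (A_55_P2008437) read -0.47 in parental ES, -1.39 and 0.22 in clones #1 and #9, and 0.05 in HoxA9-Ct ES. Clone #1 was therefore the lowest line and clone #9 the highest, with parental ES between them. Relative to parental ES the level was 0.529 and 1.61 times in clones #1 and #9 and 1.43 times in HoxA9-Ct ES. Clone #9 had 3.04 times the signal of clone #1, a log2 difference of 1.61, and this gap between lines with the same transgene was larger than any gap to parental ES. Across all probes above background on all arrays 3.52% differed by more than 2-fold between the clones, and Cdkn2a was the only 1 of the 8 members to do so. The mean of the clones was -0.12 relative to parental ES, with a 95% interval of -1.77 to 1.53 in the limma fit over probes above background on all arrays.

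The other probe of Cdkn2a (A_55_P2008438) was not above background in any line and gives no second reading. Both probes are assigned to the same RefSeq transcript, and which of the products Ink4a and Arf they read was not analysed here. The bright probe has 1 spot per array, in row 377 of 384. Single-spot probes above background on all arrays differed in rows 337 to 384 by more than 2-fold between the clones in 4.74% of cases, against 3.35% in the other rows. The part of the position in the Cdkn2a values was not tested. The fibroblast markers above background in all lines differed between the clones in the same direction as Cdkn2a. Their signals summed over 8 genes were 7.83 times the 75th percentile in parental ES, 9.60 and 17.9 in clones #1 and #9 and 10.8 in HoxA9-Ct ES. Between 93.2% and 95.7% of each sum came from the bright probe of Thy1, at 0.30 and 1.17 relative to parental ES in clones #1 and #9 and 0.48 in HoxA9-Ct ES, so the sum mainly follows that probe. Of the 8 genes 3 were above background on all arrays (Col1a1, Thy1 and Pdgfrb), and the defining markers Postn, Lum and Dcn were above background in no line. Col1a1 read -0.18, 1.93 and 0.62 relative to parental ES in clone #1, clone #9 and HoxA9-Ct ES. The part of such cells in the Cdkn2a values was not tested.

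The Cdkn2a promoter window nearer to Cdkn2b is shown because it was the only window of the 15 RefSeq promoter windows of the members with a TTTCCCGC, a core of the sites that E2F factors bind. A window spans 250 bases before to 50 after an annotated start, and TTTCCCGC on either strand occurred in 1.07% of the 32851 windows of all genes. The 60 bases around it lie at chr4:89294685-89294744 (GRCm38.p6, minus strand), with the match in capitals.
Cdkn2a: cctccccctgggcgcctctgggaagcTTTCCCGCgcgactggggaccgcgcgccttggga
The match starts 99 bases before the annotated start. It describes the letters only, and the arrays hold no measurement of binding.

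Cdkn2b, which encodes the Ink4b inhibitor and lies next to Cdkn2a on chromosome 4, was above background in the 3 transgenic lines and not in parental ES. Its brighter probe read -4.37 in parental ES, -3.86 and -3.46 in clones #1 and #9, and -3.19 in HoxA9-Ct ES. With parental ES held at its background limit, the mean of the clones was at least 1.53-fold higher and HoxA9-Ct ES at least 2.12-fold higher. Neither difference passed limma over all probes (Benjamini-Hochberg adjusted p = 1.00 for both). The second Cdkn2b probe was below background in every line. The order of the lines therefore rests on 1 dim probe, with processed signals of 11.1, 15.3, 23.0 and 22.8 in the order above.

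Cdkn2c, encoding Ink4c, was above background in clone #9 alone. It read -5.81 in parental ES, -4.92 and -4.28 in clones #1 and #9, and -5.70 in HoxA9-Ct ES. The value of clone #9 did not exceed the background limit of the parental array, so no fold is given. The unadjusted limma p for the clones against parental ES was 0.0302, and the Benjamini-Hochberg adjusted p was 0.600. Cdkn2d, encoding Ink4d, was in contrast above background in all lines and hardly varied. It read 2.38 in parental ES, 2.51 and 2.58 in clones #1 and #9, and 2.36 in HoxA9-Ct ES, so that every line was within 0.20 of parental ES.

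Of the Cip/Kip inhibitors, Cdkn1a was the most precisely measured member, because its bright probe is printed 10 times on each array. Cdkn1a encodes p21, the inhibitor through which p53 arrests the cycle. In parental ES the 10 spots ran from 1.83 to 1.92 with a median of 1.88. Clone #1 had a median of 1.77 (1.68 to 1.83), clone #9 one of 1.83 (1.70 to 1.92) and HoxA9-Ct ES one of 2.20 (2.08 to 2.26). All 10 spots of HoxA9-Ct ES thus lay above every spot of the other lines, while the spots of parental ES and clone #9 overlapped. HoxA9-Ct ES had 1.25 times the parental signal, a log2 difference of 0.32 against a spot SD of 0.03 to 0.06. Spots of 1 array share the RNA and the labelling, so their spread leaves out the spread between cultures. In the limma fit, which assumes that HoxA9-Ct and parental ES vary like the clones do, the 95% interval of the difference was -0.94 to 1.58 over all probes and -0.33 to 0.96 over probes above background on all arrays.

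**Figure D2:**
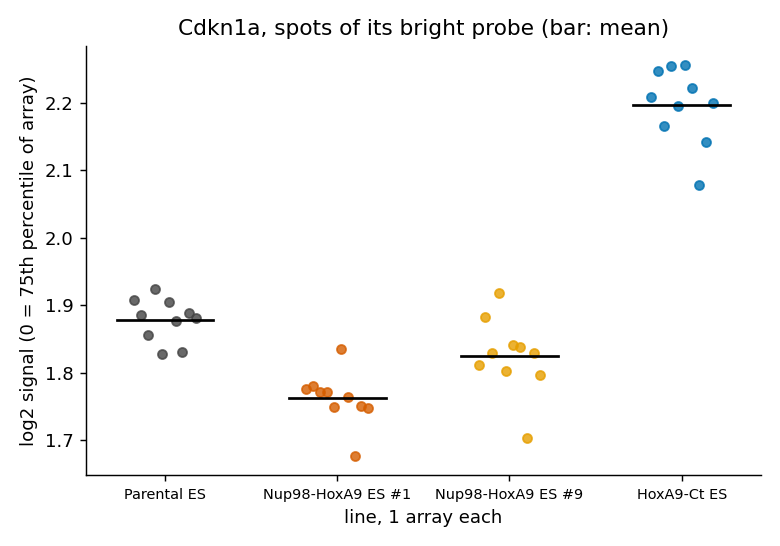
Log2 signal (y axis, 0 is the 75th percentile of the array) of the 10 printed spots of the bright Cdkn1a probe in each line, with a bar at their mean. The HoxA9-Ct ES spots start at 2.08, above the highest spot of each other line, and the clones lie at or below parental ES.

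The second Cdkn1a probe (A_55_P1986282), assigned to another transcript variant of the gene, was above background in HoxA9-Ct ES and in no other line. The processed signals were 6.83 in parental ES, 3.54 and 3.78 in clones #1 and #9, and 23.8 in HoxA9-Ct ES. It was the only member probe past the limma threshold in any comparison, lower in the clones than in HoxA9-Ct ES with a Benjamini-Hochberg adjusted p of 6.4e-05 over 55562 probes, of which 1.36% were called in that comparison. The fitted difference depends on values below background, and with the clones at their background limit the probe was at least 2.62-fold lower in them. Against parental ES the signal of HoxA9-Ct ES was higher by at least 2.21-fold (limma adjusted p = 0.308). With the fit restricted to probes above background on at least 1 array the call against the clones was lost (adjusted p = 0.308), as it was with normexp background correction (0.626) and with quantile normalization (0.352). Both probes of Cdkn1a were highest in HoxA9-Ct ES, by amounts that differ widely.

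Cdkn1b encodes p27, which holds cells out of the cycle when growth signals are low. It read 1.90 in parental ES, 2.04 and 1.64 in clones #1 and #9, and 2.06 in HoxA9-Ct ES. Clone #9 was the lowest line and clone #1 lay beside HoxA9-Ct ES. Its log2 ratios to parental ES were 0.14 and -0.26 in clones #1 and #9 and 0.16 in HoxA9-Ct ES. The difference between the clones, -0.40, exceeded the distance of either clone from parental ES.

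Trp53 was highest in parental ES and lower in the 3 transgenic lines. It read 2.29 in parental ES, 2.15 and 1.81 in clones #1 and #9, and 2.01 in HoxA9-Ct ES, as the mean of 2 spots that differed by at most 0.07. The levels were 0.905, 0.713 and 0.821 times the parental level in clone #1, clone #9 and HoxA9-Ct ES. Taken relative to the median of all probes above background, clone #9 remained 0.37 below parental ES on the log2 scale. The difference between the clones and parental ES, -0.32, had a 95% interval of -1.41 to 0.77 over all probes and of -0.96 to 0.33 over probes above background on all arrays. The sign of the small difference between the clones and HoxA9-Ct ES, -0.03, turned when arrays were scaled by their median.

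The p53 targets among the members followed no common order. Mdm2, encoding the ubiquitin ligase that marks p53 for destruction, read 4.79 in parental ES, 5.32 and 4.74 in clones #1 and #9, and 4.88 in HoxA9-Ct ES. Clone #1 alone stood apart, at 1.44 times parental ES, while clone #9 and HoxA9-Ct ES lay within 0.09 of it on the log2 scale. Ccng1, encoding cyclin G1, a phosphatase partner that acts on Mdm2, read 2.66 in parental ES, 2.65 and 2.25 in clones #1 and #9, and 2.75 in HoxA9-Ct ES. Bbc3, encoding Puma, a protein that starts cell death at the mitochondria, read 3.74, 3.72, 3.16 and 3.83 in the same order. For both genes clone #9 was the only line that left the others, at 0.751 times parental ES for Ccng1 and 0.671 times for Bbc3, and clone #1 lay at -0.01 relative to parental ES on the log2 scale. Of these 3 targets none was higher than parental ES in both clones, but relative to the median of all probes above background Mdm2 was, by 0.56 in clone #1 and 0.06 in clone #9. The differences of the clones from parental ES were 0.24 for Mdm2, -0.21 for Ccng1 and -0.29 for Bbc3, each with a 95% interval of ±1.09 around it in the limma fit over all probes.

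**Figure D3:**
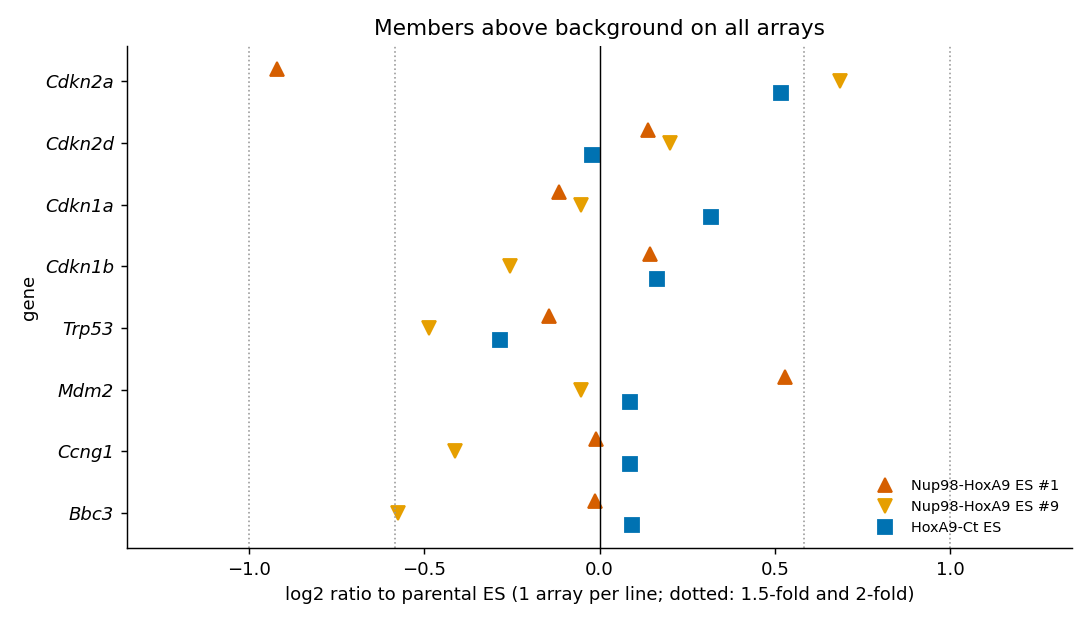
Log2 ratio to parental ES (x axis, 1 array per line) of the 8 members above background on all arrays, with dotted lines at 1.5-fold and 2-fold. Cdkn2a lies at -0.92 in clone #1 and 0.69 in clone #9, and no other gene passes 1.5-fold in any line.

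The p53 protein binds as a tetramer to pairs of half-sites, and the promoter windows of the members were searched for the p53 half-site consensus of 10 bases, which reads the same on both strands. It was present in 1 window of each of 5 members, Cdkn1a, Mdm2, Ccng1, Trp53 and Cdkn2d, and in 8.36% of the windows of all genes. The window of Cdkn1a that lies further upstream was the only member window with a pair of half-sites no more than 13 bases apart, found in 0.0731% of all windows. These stretches of 60 bases are shown because they let the targets with and without such letters be set beside their values. Half-sites are in capitals, and the coordinates are of GRCm38.p6. They are chr17:29090892-29090951 on the plus strand for Cdkn1a, chr10:117710910-117710969 on the minus strand for Mdm2, chr11:40755437-40755496 on the minus strand for Ccng1, chr11:69580259-69580318 on the plus strand for Trp53 and chr9:21291277-21291336 on the minus strand for Cdkn2d.
Cdkn1a: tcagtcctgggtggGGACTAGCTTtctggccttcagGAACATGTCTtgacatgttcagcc
Mdm2: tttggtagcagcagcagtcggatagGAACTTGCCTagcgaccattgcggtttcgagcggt
Ccng1: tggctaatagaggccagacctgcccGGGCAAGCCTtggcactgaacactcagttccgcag
Trp53: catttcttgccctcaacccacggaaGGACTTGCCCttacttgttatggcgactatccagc
Cdkn2d: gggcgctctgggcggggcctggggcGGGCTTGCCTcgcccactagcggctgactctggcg
The Cdkn1a pair starts 73 and 51 bases before the annotated start and is separated by 12 bases. Only exact matches to the consensus were marked. The letters tgacatgttc, directly after the second Cdkn1a half-site, depart from the consensus at their first base and so stay in lower case. The marked pair is therefore not the only possible pairing of half-sites in this stretch. The 5 genes that hold the letters did not share an order of the lines. Cdkn1a was highest in HoxA9-Ct ES, Mdm2 in clone #1, Ccng1 in HoxA9-Ct ES, Trp53 in parental ES and Cdkn2d in clone #9. The windows of Bbc3 and of the other Cdkn genes held no half-site, which says only that these letters are not in these 300 bases.

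The windows of the members also differed in CpG content. The observed over expected CpG ratio had a median of 0.746 over the 15 member windows and of 0.384 over all windows, and 14 of the 15 exceeded the latter. The exception was the upstream Cdkn1a window with the half-site pair, at 0.0892.

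With limma over all probes, 0 of the 13 member probes were called in Nup98-HoxA9 ES against parental ES, where 1.41% of all probes were called, and 1 had an unadjusted p under 0.05, that of Cdkn2c. In HoxA9-Ct ES against parental ES 0 member probes were called, against 0.405% of all probes, and 2 had an unadjusted p under 0.05, the dim probes of Cdkn1a and Cdkn2a. Of all 55562 probes, 3476 had an unadjusted limma p under 0.05 for the clones and 1951 for HoxA9-Ct ES, each against parental ES. With trend and robust estimation in limma the counts of member probes called in these comparisons were also 0. Quantile normalization left 0 of all probes called, so its count for the members could only be 0. Because the fit gives every probe the same standard error, 0.56 for the clones and 0.64 for HoxA9-Ct ES, the smallest differences called were 3.69-fold and 5.23-fold, and the intervals do not show that the lines are alike. By size alone, 0 of the 8 members above background on all arrays differed by more than 1.5-fold between HoxA9-Ct and parental ES, against 5.34% of all such probes.

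The ratios of the 8 members to parental ES had a median of -0.01 and -0.15 in clones #1 and #9 and 0.09 in HoxA9-Ct ES, each within 0.10 of the median of all probes above background. In clone #1 they ran from -0.92 for Cdkn2a to 0.53 for Mdm2. In clone #9 they ran from -0.58 for Bbc3 to 0.69 for Cdkn2a, and in HoxA9-Ct ES from -0.28 for Trp53 to 0.52 for Cdkn2a. The clones lay on the same side of parental ES for 5 of the 8 genes, Cdkn1a, Cdkn2d, Trp53, Ccng1 and Bbc3, and on opposite sides for Cdkn2a, Cdkn1b and Mdm2. Taken relative to the median of all probes above background, only 3 of the 8 lay on the same side in both clones, Cdkn2d, Trp53 and Mdm2. Clone #9 was lower than clone #1 for 5 genes, with log2 differences from -0.34 for Trp53 to -0.58 for Mdm2. Over all probes above background this difference had a median of -0.08 and an SD of 0.47, so most of those probes were also lower in clone #9.

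**Figure D4:**
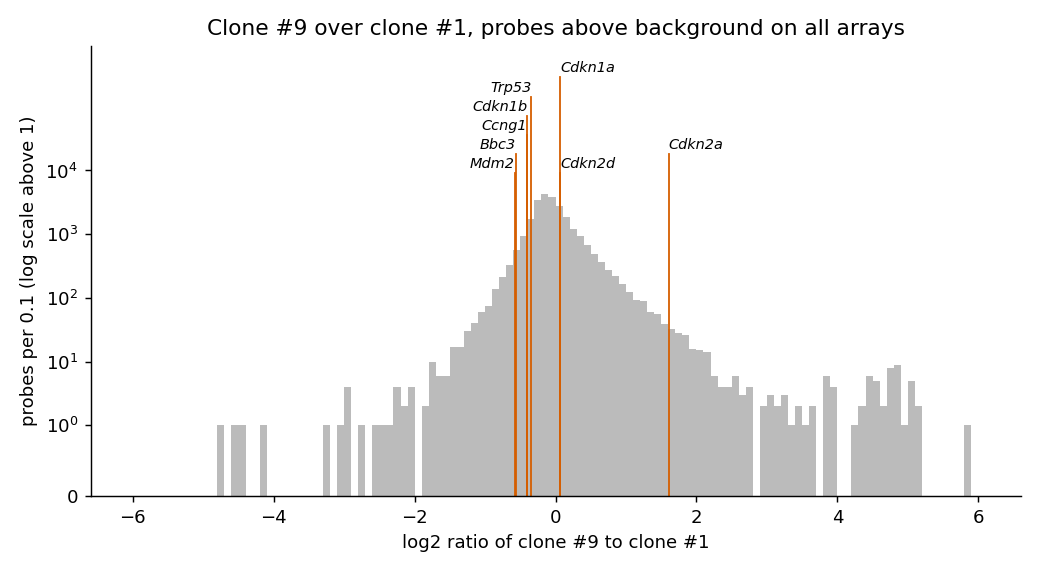
Number of probes (y axis, log scale above 1) by log2 ratio of clone #9 to clone #1 (x axis, bins of 0.1) for the 25529 probes above background on all arrays, with a line for each of the 8 members. Cdkn2a at 1.61 lies in the upper tail, and the other members lie between -0.58 and 0.06.

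Other genes of the p53 pathway were read from a list of 34 further targets, of which 32 were above background in all lines. Limma called 0 of them in either direction in any of the 3 comparisons. Sizes were counted at the brightest probe of each gene. By size 2 of the 32 exceeded the parental level by more than 1.5-fold in both clones and 0 were that far below it, a share close to the 6.7% of all probes. These were Sesn1, encoding a stress protein that restrains mTORC1, at 1.46 and 1.52 in clones #1 and #9 and 0.45 in HoxA9-Ct ES, and Pmaip1, encoding the death-promoting protein Noxa, at 1.39, 1.15 and 0.13. Their limma adjusted p values for the clones against parental ES were 0.255 and 0.503. Btg2, an antiproliferative gene, read -0.26, -1.07 and -0.71, and Eda2r, encoding a death receptor, -0.28, -0.87 and -0.26. The medians of the list, 0.13, -0.14 and -0.03, lay near 0 like those of the members. Of 17 regulators and relatives of p53, all above background in every line, 0 were called and 0 passed 1.5-fold in both clones. Those furthest from parental ES in both clones, Chek2, Atm, Hipk2 and Cop1, lay between -0.46 and -0.10 at their brightest probe. Other Cop1 probes above background on all arrays read -0.74 and -0.20 in clone #1, and -0.57 and -0.39 in clone #9.

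Among 5 other CDK inhibitors and pocket proteins 0 were called, and 0 passed 1.5-fold in both clones. Cdkn1c, which encodes the remaining Cip/Kip inhibitor p57 and is imprinted, read -1.71 and -0.04 in clones #1 and #9 and -0.65 in HoxA9-Ct ES, so that like Cdkn2a it was lowest in clone #1. Rb1 and Rbl1, encoding retinoblastoma proteins, read 0.29 and 0.29 in clone #1 and 0.15 and 0.42 in clone #9 at their brightest probe. Another Rbl1 probe above background on all arrays read 0.07 and -0.61 in clones #1 and #9, so the probes of Rbl1 disagree in clone #9. Of 13 regulators of the Cdkn2a and Cdkn2b locus 10 were above background in every line, 0 were called and 1 was more than 1.5-fold higher in both clones. That gene was Tbx3, encoding a T-box repressor of Arf, at 0.73 and 0.91 in clones #1 and #9 and 0.33 in HoxA9-Ct ES. Kdm2b, encoding a histone demethylase of a Polycomb complex, read -0.45, -0.56 and 0.33. Ets1, an activator of Ink4a, read 0.05, 0.95 and 0.19, and Id1, which opposes it, 0.84, 0.13 and -0.31.

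**Figure D5:**
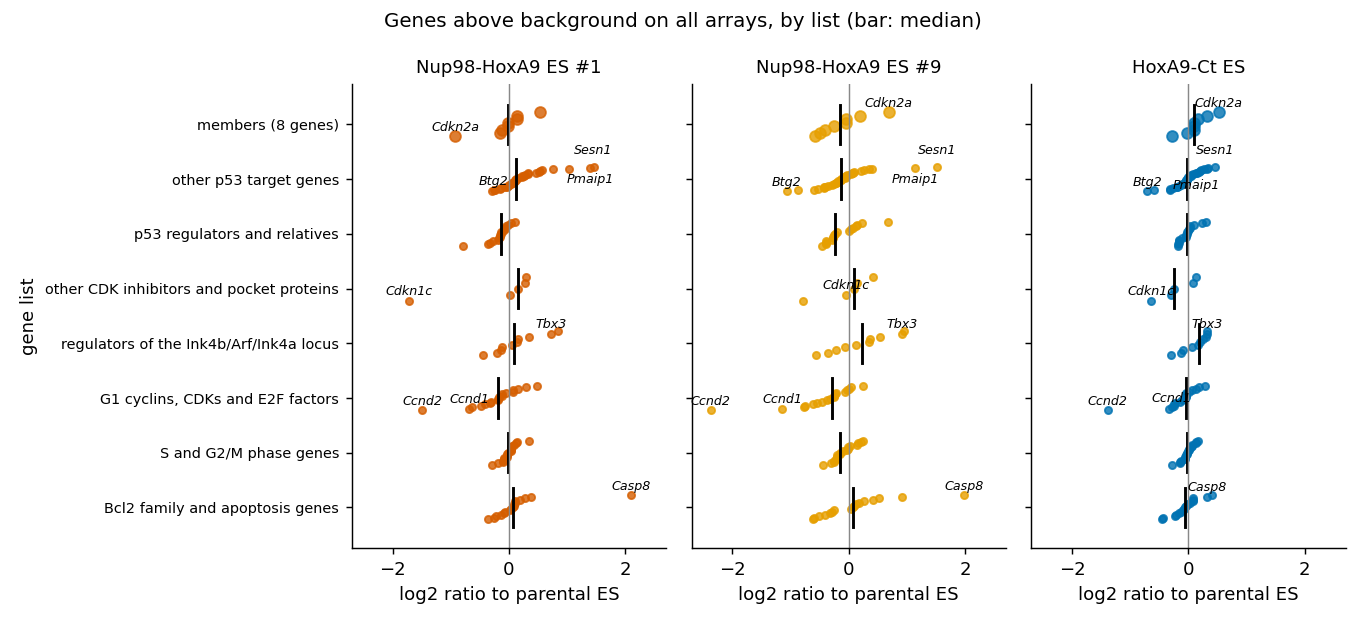
Log2 ratio to parental ES (x axis) of the 8 members and of the genes of 7 related lists that were above background on all arrays, in 1 panel per line, with a bar at the median of each list. The medians lie near 0 in every panel, and single genes such as Casp8, Sesn1, Ccnd2 and Cdkn1c lie outside the range of the members.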

How the data were processed

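RNA of each line was labelled with Cy3 and hybridised to 1 Agilent 8×60K array. The authors extracted the images with Agilent Feature Extraction 10.10.1.1, and the deposited spot intensities are background-subtracted and detrended but unscaled between arrays. The deposited series matrix holds the same intensity values times 1 constant per array. Control spots and spots marked as outliers were left out, spots of a probe were averaged, and log2 signals were taken relative to the 75th percentile of each array. RefSeq accessions named 26762 of 55681 probes, and 55562 had a value on all arrays. The 3 groups entered 1 fit with limma 3.58.1 (lmFit and eBayes, R 4.3.3), which leaves 1 residual degree of freedom and gave a prior SD of 0.454 for every probe. Calls were made at a p of 0.05 after Benjamini-Hochberg adjustment over all probes. The single arrays are thus assumed to vary like the clones, and the number of arrays limits the precision. The fit was tested on simulated data, where it recovered changed probes when all probes shared 1 spread but not when the spread followed the signal level. Bounds hold a dim array at the higher of its own and its lowest signal called above background. Counts, medians and promoter searches used Python 3.11.15, numpy 2.4.6 and pandas 2.3.3, with RefSeq promoter windows of GRCm38.p6, which cover all 10 genes. The array annotation uses another build, so no position of a probe is given.

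Every member is named at every probe, the brightest first, and of each related list up to 4 genes furthest from parental ES in both clones together with genes called by limma. Col1a1, Col1a2, Col3a1, Thy1, Pdgfrb, Postn, Lum and Dcn are named as markers. Genes of the lists were read and counted at their brightest probe. The members and lists were chosen with earlier results of these data known. Alternatives were normexp background correction (offset 50, on the median pixel of spot and background, as no mean pixel column was used here), quantile normalization, scaling by the array median or by the median of bright probes, a floor, probes above background on at least 1 or on all arrays, the authors' matrix, outlier spots kept, trend and robust eBayes, the mean over probes, leaving out each clone, a 1.5-fold threshold and HoxA9-Ct ES as the reference.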

Additional observations from a re-analysis of the deposited data

Results flagged for a closer look

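Cdkn2a moved in opposite directions in the Nup98-HoxA9 clones relative to parental ES, by -0.92 on the log2 scale in clone #1 and by 0.69 in clone #9. Opposite moves were listed where both exceeded 0.237, which is 2 times the SD between printed copies of a probe. That SD comes from probes with 10 spots, while this probe has 1, and it leaves out the spread between cultures. The difference between the clones was not tested, as each is 1 array. It ran from 1.16 with normexp background correction to 1.61, the value as reported, across the other settings that kept this probe.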

How the results depend on the processing

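No member probe was called in either comparison with parental ES under any setting tried. The call of the second Cdkn1a probe against HoxA9-Ct ES was lost (0 member probes called) with normexp correction, with quantile normalization, and with only probes above background on at least 1 array or on all arrays, where the probe is not kept. The counts over all probes depended on the setting. Against 781, 225 and 756 calls in Nup98-HoxA9 ES against parental ES, HoxA9-Ct ES against parental ES and Nup98-HoxA9 ES against HoxA9-Ct ES, quantile normalization gave 0 in each, and so did probes above background on at least 1 array. Probes above background on all arrays gave 11, 0 and 1, and trend and robust estimation gave 1243 and 1284 in the comparisons of the clones. HoxA9-Ct ES against parental ES gave 73 with normexp and 125 with a floor. The 480 probes past 2-fold in both clones became 168 with normexp and 1711 at 1.5-fold, and 895 to 1634 with either clone alone, when 1 member passed 1.5-fold (Cdkn2a each time, in opposite directions). The 899 probes past 2-fold between the clones became 292 with normexp. Signs of uncalled differences turned as follows. Cdkn2a in the clones against parental ES became 0.060 with normexp, Cdkn2c became -0.078 against parental ES and -0.12 against HoxA9-Ct ES with a floor, and Cdkn2c in HoxA9-Ct ES became -0.035 with normexp and -0.053 with quantile normalization. Trp53 in the clones against HoxA9-Ct ES became 0.012 with the array median and 0.0093 with the median of bright probes. The causes were not tested. No paired analysis was possible because the groups share fewer than 2 replicate numbers. With 1 array each for parental and HoxA9-Ct ES, no difference under 3.69-fold was called between the clones and parental ES.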

Other observations

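Of 20 G1 cyclins, CDKs and E2F factors read on the arrays, limma called 2 lower in the clones than in the parental line and 0 higher, where 1.41% of all probes were called in either direction. Ccnd2, encoding cyclin D2, read -1.49 and -2.37 relative to parental ES in clones #1 and #9 and -1.39 in HoxA9-Ct ES (adjusted p = 0.0396 for the clones). Cdk6, the kinase that cyclin D2 and the Ink4 proteins bind, was above background in parental and HoxA9-Ct ES only and was at least 2.66-fold lower in the clones than in parental ES (adjusted p = 0.0178). Ccnd1, encoding cyclin D1, read -0.68, -1.14 and -0.29 and E2f8, a repressor of the E2F family, -0.63, -0.76 and -0.11, and neither was called. E2f4 read -0.41, -0.77 and 0.02. By size 3 of the 18 genes above background in all lines, Ccnd1, Ccnd2 and E2f8, lay more than 1.5-fold below parental ES in both clones, while 6.7% of all probes passed that limit in either direction. Of the same 18 genes 12 lay below parental ES in both clones and 2 above it in both, among them Ccnd3 at 0.49 and 0.25 (named after its values were seen). The median of all probes above background on all arrays was itself below parental ES, at -0.03 and -0.12 in clones #1 and #9. The share of all probes below parental ES in both clones is not given here, so these counts do not show a lowering particular to these genes. The Ccnd2 call was lost in the fit over probes above background on all arrays (adjusted p = 0.351), and the Cdk6 call with normexp correction (1.00) and with trend and robust estimation (0.0552). Both were lost with quantile normalization and with only probes above background on at least 1 array, where limma called 0 of all probes.

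Genes of S phase and of G2 and mitosis lay close to parental ES. Of 20 such genes 19 were above background in all lines, 0 were called and 0 passed 1.5-fold in both clones, and their ratios ran from -0.29 to 0.34 in clone #1 and from -0.44 to 0.25 in clone #9. The ends of these ranges were Ccnb1, encoding cyclin B1, at -0.29 and -0.44 at its brightest probe, and Foxm1 and Bub1 on the upper side. Other Ccnb1 probes above background on all arrays read -0.08 and -0.15 in clone #1, and -0.15 and -0.20 in clone #9.

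Of 17 genes of the Bcl2 family and of apoptosis, limma called 1, Casp8, which encodes the caspase that death receptors activate. It read 2.10 and 1.99 relative to parental ES in clones #1 and #9 and 0.32 in HoxA9-Ct ES (limma adjusted p = 0.0222), and 1.41% of all probes were called. The call was lost with quantile normalization (adjusted p = 0.422) and with only probes above background on at least 1 array (0.346) or on all arrays (0.146). Bik, encoding a death-promoting protein, read 0.10, 0.92 and 0.07, Bcl2l2, a survival gene, 0.38, 0.53 and -0.16, and Bok -0.22, -0.60 and 0.07, none of them called.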
